A study of Homo sapiens with 4 samples.

Results

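The subunits of oxidative phosphorylation that are encoded in the nucleus were read from a table of 28277 genes by their symbols: the NDUFA, NDUFB, NDUFC, NDUFS and NDUFV families for complex I, SDHA to SDHD for complex II, the UQCR genes and CYC1 for complex III, COX4 to COX8 for complex IV, and the ATP5F1, ATP5M and ATP5P genes for complex V. The prefixes matched 94 rows, of which 5 were left out by the same naming rule: 3 antisense or divergent transcripts, 1 pseudogene symbol and 1 complex I subunit row. The 89 rows that remained comprise 37 for complex I, 4 for complex II, 10 for complex III, 19 for complex IV and 19 for complex V, with NDUFA4 and NDUFA4L2 counted in complex IV. They are 87 subunit rows and 2 read-through rows that join a subunit to the gene after it. The rule used symbols and no measured value, but the members were chosen with earlier results of these data known.

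Oxidative phosphorylation is the route by which mitochondria turn the energy of nutrients into ATP. Complexes I and II feed electrons from NADH and succinate into the ubiquinone pool, complex III passes them to cytochrome c, complex IV gives them to oxygen, and complex V uses the proton gradient that builds up to make ATP. Most subunits are made from nuclear genes and imported. The genes encoded in mitochondrial DNA, which supply the proton-pumping cores, were not analysed here.

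The libraries came from NCI-H520, an established line of lung squamous cell carcinoma whose genotype is labelled WT, in a study concerned with the self-association of the transcription factor SOX2 and with drug resistance. Cells of one group received Hx1R8 at 10 µM over 12 h (2 libraries), and cells of the other, called Vehicle, received ultrapure water over the same 12 h (2 libraries). The labels name Hx1R8 without describing it. Nothing in the labels tells whether separate cultures were used, and the p-values reflect the spread among these 4 libraries alone, which may be technical, and a single line limits the group as a model of the tumour.

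The libraries held 17259403 and 20920857 reads in genes with Hx1R8 and 17483349 and 17352323 with Vehicle, so Hx1R8 replicate 2 was the deepest. SOX2 averaged 510 ± 17.4 CPM (counts scaled to the library total) with Hx1R8 and 528 ± 18.7 CPM with Vehicle (SD, n = 2 each). Other squamous markers were low: KRT6A averaged 17.5 CPM with Hx1R8 and 19.8 CPM with Vehicle, TP63 stayed below 1 CPM, and KRT14 and DSG3 were at 0 in every library. Of the markers of other cell types, 6 of 7 fibroblast and endothelial, 4 of 6 immune and 5 of 6 muscle genes were below 1 CPM in every library, and PTPRC was at 0. The summed immune markers ranged from 2.09 to 2.86 CPM with Hx1R8 and from 3.06 to 3.37 CPM with Vehicle. The fibroblast and endothelial markers summed to 8.77 and 8.97 CPM with Hx1R8, against 9.43 and 9.31 CPM with Vehicle. The muscle markers summed to 17.1 and 17.3 CPM with Hx1R8, against 18.6 and 16.4 CPM with Vehicle, near the level of KRT6A. The part of these low signals in the results was not tested.

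None of the subunit genes passed the test between Hx1R8 and Vehicle, in either direction. The differences were small: the median log2 fold change over the 79 tested members was -0.03, against -0.002 over all 14482 tested genes, and all members but ATP5F1E lay between -0.25 and 0.09. The 6 subunits named below from the catalytic core of complex I lay between -0.09 and 0.02, and the members furthest below 0 were ATP5MD, UQCRQ and COX6B1, small subunits of complexes V, III and IV. In one library, Hx1R8 replicate 2, the members as a group stood lower than in the other 3.

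By edgeR's quasi-likelihood test with Benjamini-Hochberg adjustment over all tested genes, 0 of 79 members had an adjusted p under 0.05, where 0.0207% of all tested genes did (3 genes, none a member). The shares were 0.0138% called higher and 0.00691% called lower with Hx1R8. Every tested member had an adjusted p of 0.9999 in that edgeR fit, and DESeq2 and limma-voom called 0 members as well. At an unadjusted p under 0.05 there were 5 of 79 members (6.33%), against 3.39% of all tested genes. The 95% interval of the fold change lay within 1.2-fold in either direction for 66 of 79 members, and within 1.5-fold for 78, the exception being ATP5F1E. Each interval covers a single gene without adjustment over genes. Its width rests on 2 residual and 36.9 prior degrees of freedom, so mostly on a spread shared over genes. It therefore does not measure how well a gene's own replicates matched. ATP5ME lay within 1.5-fold, although its Hx1R8 libraries had 47.0 and 27.6 CPM. Such an interval is not the limit of what the adjusted test could call with 2 libraries a group. In bulk RNA, fewer cells and less RNA per cell cannot be told apart.

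More members lay below 0 than above it. The counts were 57 below and 22 above, and 51.1% of all tested genes lay below. By complex, 27 of 36 tested members of complex I were below 0, 3 of 4 of complex II, 8 of 10 of complex III, 10 of 12 of complex IV and 9 of 17 of complex V. The median log2 fold changes were -0.04, -0.04, -0.03, -0.06 and -0.01 in that order. Both Hx1R8 libraries were below both Vehicle libraries for 17 of 79 members, or 21.5%, where 15.2% of all tested genes showed that order. They were above both Vehicle libraries for 7 members, or 8.86%, against 14.7% of all tested genes, and the groups overlapped for the remaining 55. The difference between groups was larger than the gap within both groups for 14 of 79 members, or 17.7%, against 18.7% of all tested genes.

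**Figure D1:**
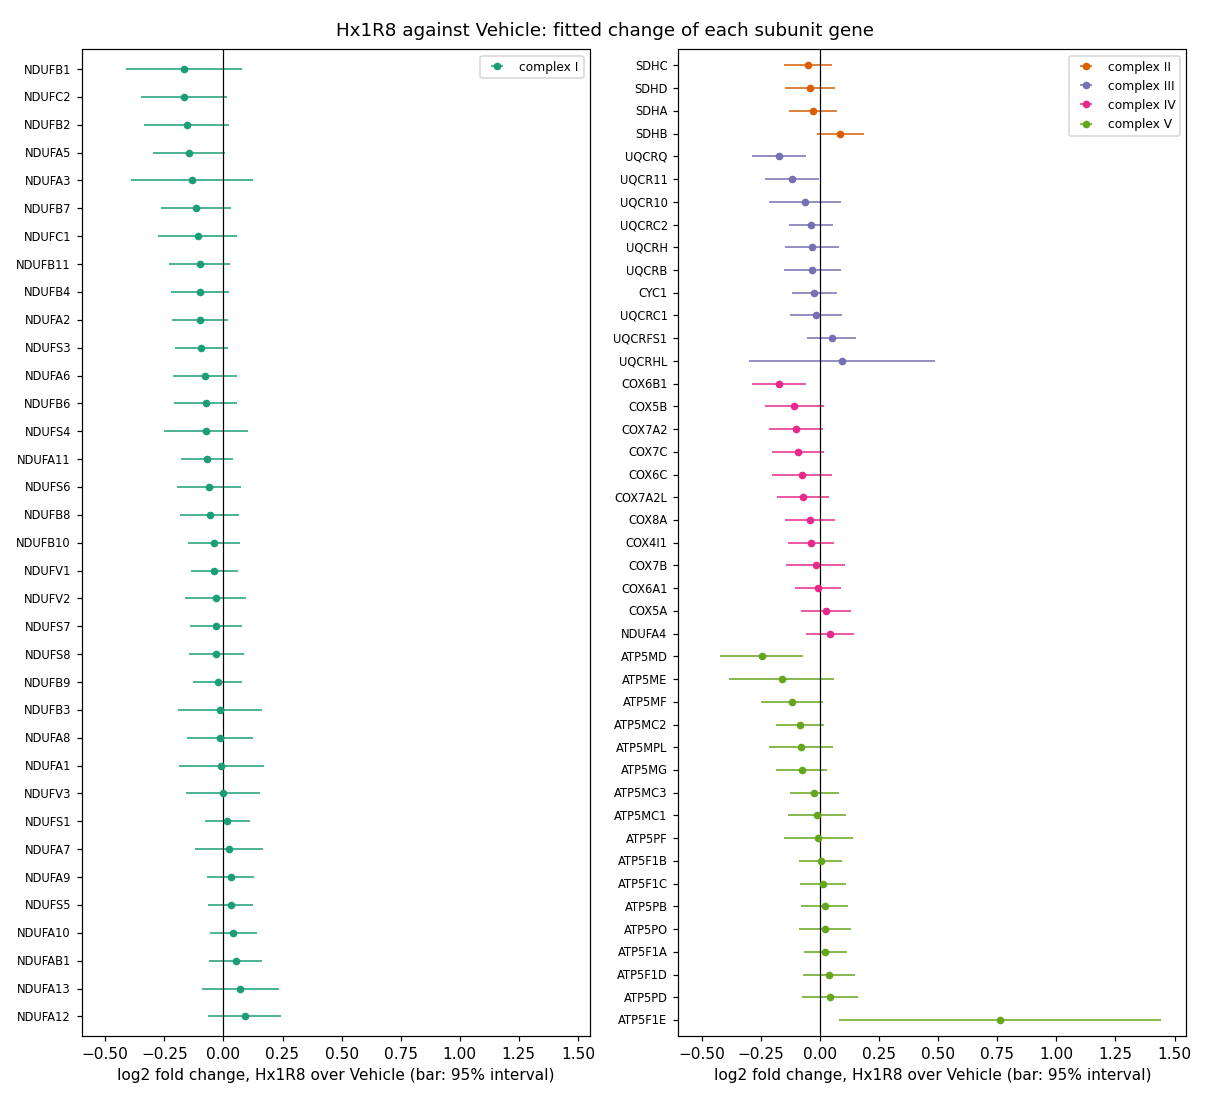
Log2 fold change (Hx1R8 over Vehicle) with its 95% interval for 78 tested members, by complex, from edgeR. The members lie close to 0, with medians from -0.06 in complex IV to -0.01 in complex V, and ATP5F1E at 0.76 stands alone with a wide interval.

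The levels of the members spread widely. Per length, as TPM (a length-scaled share of transcripts) on the exon length in the table, the highest was NDUFS5, an accessory subunit of complex I, which averaged 2672 ± 18.9 TPM with Hx1R8 and 2599 ± 145 TPM with Vehicle and ranked 20 among 28277 genes by its mean. ATP5F1B, the catalytic beta subunit of the ATP synthase head, averaged 1395 ± 17.5 TPM with Hx1R8 and 1383 ± 11.4 TPM with Vehicle (rank 64). In complex IV the highest were COX6A1 at 953 ± 23.1 TPM with Hx1R8 and 952 ± 14.3 TPM with Vehicle, and COX7C at 825 ± 79.4 TPM with Hx1R8 and 873 ± 5.38 TPM with Vehicle. Within each complex the subunits are assembled in fixed proportions, but the mean TPM of the tested members ran from 3.04 to 2636 in complex I, 27.1 to 451 in complex II, 19.3 to 551 in complex III, 59.0 to 952 in complex IV and 0.971 to 1389 in complex V. The lowest value in complex I, NDUFA3, rests on an exon length that adds copies of the gene on alternate contigs: it was 3.04 TPM on the listed 9450 bases and 29.5 TPM on the 945 bases of the primary chromosome. Exons on alternate contigs are included for 6 members. The lowest members of complexes III and V, UQCRHL and ATP5F1E, share sequence or exon bases with other rows, as described below. These low ends may therefore not give the true transcript level.

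**Figure D2:**
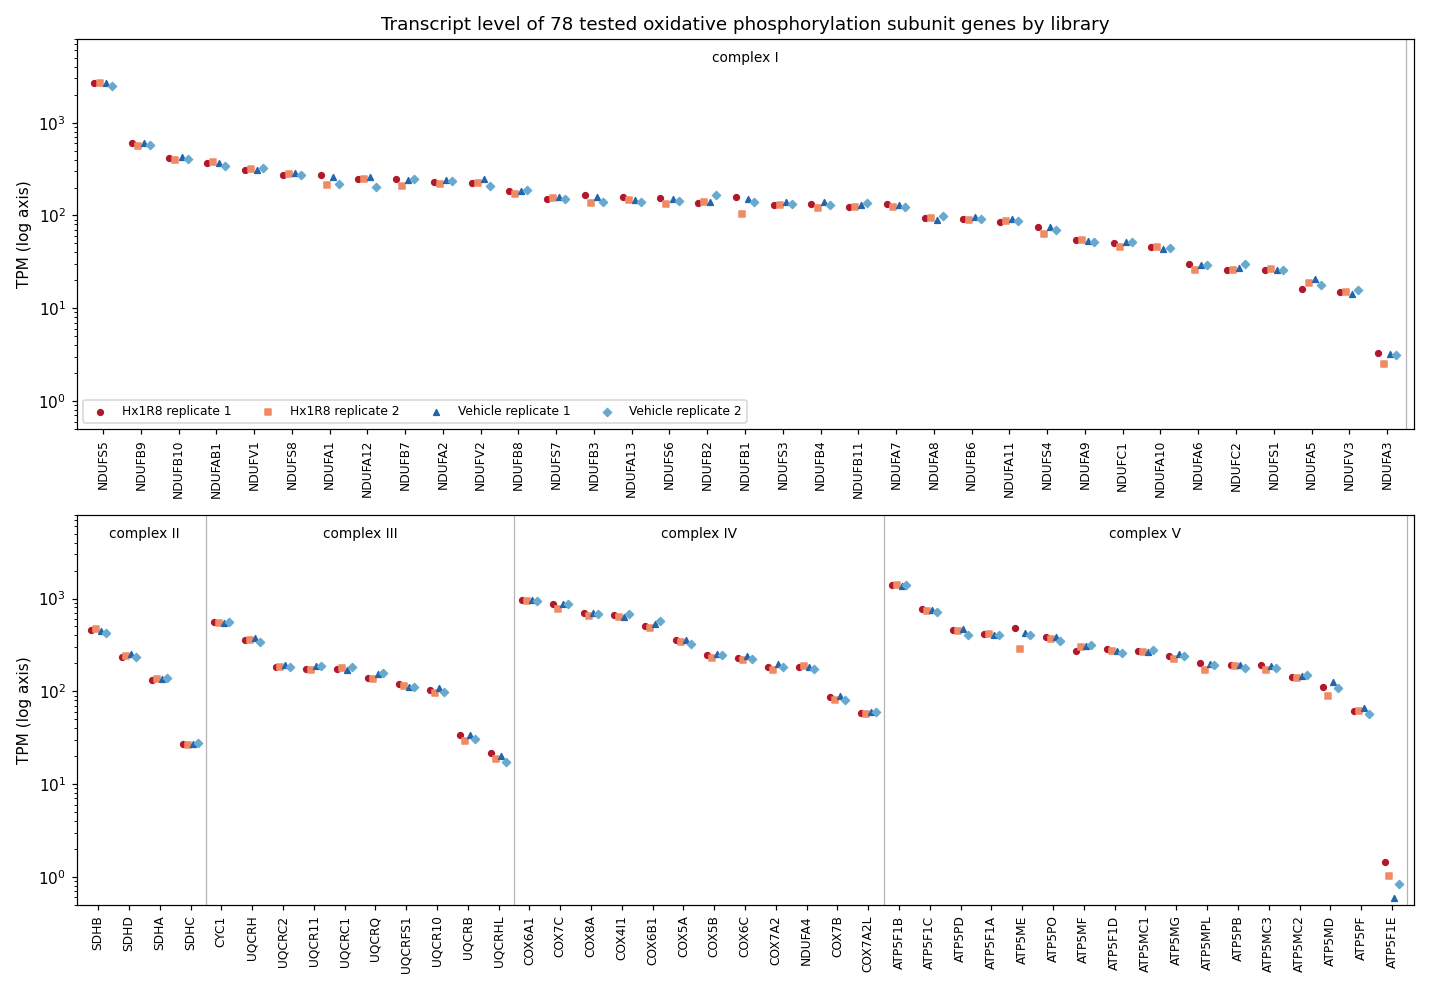
TPM of 78 tested members (log axis), by complex, with 1 point per library of Hx1R8 and Vehicle. Levels differ far more between subunits than between the groups, and NDUFS5 and ATP5F1B are the highest of complexes I and V.

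In complex I, the dehydrogenase that oxidises NADH, 6 subunits of the catalytic core (NDUFS1, NDUFS3, NDUFS7, NDUFS8, NDUFV1 and NDUFV2) had log2 fold changes between -0.09 and 0.02, median -0.03. All 6 had a 95% interval within 1.2-fold. NDUFS1, the largest core subunit, which carries iron-sulfur clusters, had 198 and 199 CPM with Hx1R8, against 197 and 196 CPM with Vehicle. NDUFV1, the subunit that binds NADH, had 156 and 157 CPM with Hx1R8, against 157 and 165 CPM with Vehicle. NDUFS3, a core subunit of the matrix arm, had 74.4 and 74.9 CPM with Hx1R8, against 81.2 and 78.2 CPM with Vehicle (log2 fold change -0.09, SE 0.06). The groups did not overlap for NDUFS1, at a log2 fold change of 0.02, or for NDUFS3, and NDUFV1 overlapped.

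The 29 tested accessory subunits of complex I ranged from -0.17 to 0.09, with 22 below 0. NDUFC2, an accessory subunit of the membrane arm, had 18.1 and 18.0 CPM with Hx1R8, against 19.1 and 21.4 CPM with Vehicle (log2 fold change -0.17, SE 0.09). NDUFB2, also of the membrane arm, had 20.5 and 20.8 CPM with Hx1R8, against 20.9 and 25.1 CPM with Vehicle (-0.16, SE 0.09). For both, the Hx1R8 pair lay below the Vehicle pair, and the higher Vehicle library was replicate 2. Without Vehicle replicate 2, NDUFB2 was at -0.02 and NDUFC2 at -0.08. NDUFA5, an accessory subunit beside the core, had 34.0 and 38.9 CPM with Hx1R8, against 43.7 and 37.3 CPM with Vehicle, so the groups overlapped (-0.15, SE 0.08), and its value was -0.03 without Vehicle replicate 1 and -0.06 without Hx1R8 replicate 1. NDUFS5 and NDUFB9 overlapped too, at 0.03 and -0.02. NDUFA3 had 10.2 and 7.68 CPM with Hx1R8, against 9.77 and 9.60 CPM with Vehicle. At the other end, NDUFA10 was above Vehicle in both Hx1R8 libraries, with 145 and 142 CPM with Hx1R8 and 138 and 140 CPM with Vehicle, a log2 fold change of 0.04.

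Complex II, succinate dehydrogenase, is also an enzyme of the TCA cycle and is built from 4 subunits, all nuclear. SDHB, which carries the iron-sulfur clusters, was the member of complex II with the smallest p and had 151 and 153 CPM with Hx1R8, against 147 and 140 CPM with Vehicle (log2 fold change 0.09, SE 0.05). SDHA, the flavoprotein that oxidises succinate, had 121 and 123 CPM with Hx1R8, against 122 and 127 CPM with Vehicle. The membrane anchors were as even: SDHC had 120 and 113 CPM with Hx1R8, against 119 and 121 CPM with Vehicle, and SDHD had 117 and 117 CPM with Hx1R8, against 126 and 115 CPM with Vehicle. The groups overlapped for SDHA, SDHC and SDHD, and all 4 intervals lay within 1.2-fold.

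In complex III the subunits that carry electrons were close to even. CYC1, cytochrome c1, had 214 and 207 CPM with Hx1R8, against 212 and 217 CPM with Vehicle (log2 fold change -0.02). UQCRFS1, the Rieske iron-sulfur protein, had 120 and 114 CPM with Hx1R8, against 113 and 113 CPM with Vehicle (0.05, SE 0.05). UQCRC1 and UQCRC2, the core proteins that face the matrix, were at -0.02 and -0.04. Of the 6 small subunits, 5 lay below 0, with a median of -0.05. UQCRQ, a small subunit in the membrane, had the smallest unadjusted p of all members. It had 71.9 and 68.9 CPM with Hx1R8, against 78.5 and 80.2 CPM with Vehicle, a log2 fold change of -0.17 (SE 0.06, unadjusted p = 0.0034, adjusted p = 0.9999 by edgeR). UQCR11, another small subunit, had 73.9 and 70.5 CPM with Hx1R8, against 78.4 and 78.3 CPM with Vehicle (-0.12, SE 0.06, unadjusted p = 0.039 by edgeR). In both, the Hx1R8 and Vehicle libraries did not overlap, and replicate 2 was the lower of the Hx1R8 pair.

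Complex III also holds a near-identical pair of genes. UQCRH, the hinge protein next to cytochrome c1, is a gene with introns, and UQCRHL is an intronless copy elsewhere on chromosome 1. Their coding sequences are shown because reads of one can be counted for the other. From the GENCODE v29 annotation of GRCh38 without the stop codon, UQCRHL lies at chr1:15807377-15807649 on the minus strand, and the UQCRH coding exons lie within chr1:46303767-46316581 on the plus strand. The capitals mark the positions where they differ.
UQCRHL: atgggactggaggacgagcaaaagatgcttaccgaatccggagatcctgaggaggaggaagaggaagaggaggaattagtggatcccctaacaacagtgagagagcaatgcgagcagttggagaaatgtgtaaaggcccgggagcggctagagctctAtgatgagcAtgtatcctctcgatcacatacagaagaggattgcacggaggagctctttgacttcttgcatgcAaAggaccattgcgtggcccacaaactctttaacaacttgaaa
UQCRH: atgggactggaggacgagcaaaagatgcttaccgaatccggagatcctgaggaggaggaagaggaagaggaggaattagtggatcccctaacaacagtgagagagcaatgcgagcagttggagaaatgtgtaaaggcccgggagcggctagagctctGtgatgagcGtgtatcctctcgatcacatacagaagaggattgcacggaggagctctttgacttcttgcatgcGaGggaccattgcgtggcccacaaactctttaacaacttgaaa
Counted from base 1 of the start codon, with the UQCRH base first and the UQCRHL base after the position, the differences are G158A, G167A, G231A and G233A. The sequences are identical at 269 of 273 bases, or 98.5%, and 54.5% of the 50-base windows of UQCRHL occur unchanged in UQCRH. UQCRHL had 65 and 67 reads with Hx1R8, against 61 and 52 reads with Vehicle, and UQCRH had 1354 and 1636 reads with Hx1R8, against 1467 and 1325 reads with Vehicle. The groups overlapped for UQCRH in CPM and for UQCRHL, at log2 fold changes of -0.03 and 0.09. How many of the UQCRHL reads came from UQCRH transcripts cannot be told apart here, so its value is uncertain.

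In complex IV, cytochrome c oxidase, the nuclear subunits surround a core made in the mitochondrion. COX6B1, a subunit at the interface of the dimer on the side of cytochrome c, had 79.5 and 75.8 CPM with Hx1R8, against 83.6 and 91.4 CPM with Vehicle (log2 fold change -0.17, SE 0.06, unadjusted p = 0.0040, adjusted p = 0.9999 by edgeR). The Hx1R8 pair lay below the Vehicle pair. COX7A2 and COX7A2L, of which COX7A2L is known for joining complexes III and IV in supercomplexes, showed the same order, at -0.10 (SE 0.06) and -0.07 (SE 0.05). COX7C, a small membrane subunit, had 180 and 155 CPM with Hx1R8, against 179 and 178 CPM with Vehicle (-0.09, SE 0.05), so only Hx1R8 replicate 2 stood apart. COX4I1, COX6A1, COX7B and COX8A overlapped between the groups, at -0.04, -0.01, -0.02 and -0.04. NDUFA4, first described as a complex I subunit and later placed in complex IV, had 122 and 121 CPM with Hx1R8, against 121 and 116 CPM with Vehicle (0.04, SE 0.05).

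The tissue-restricted forms of complex IV were almost silent. COX6A2, COX7B2 and COX8C, the first known from heart and skeletal muscle and the last from testis, were at 0 reads in every library, which allows up to 0.143 to 0.174 CPM by the 3-read floor for counting error. For COX8C only 39.3% of the listed exon bases are not shared with another row (UNC79), and no source used here says how shared reads were counted. COX4I2, the form known from lung and from low oxygen, had 1 and 1 reads with Hx1R8, against 0 and 1 reads with Vehicle. COX6B2 had 1 and 2 reads with Hx1R8, against 5 and 2 reads with Vehicle, and COX7A1, the heart and muscle form, had 4 and 3 reads with Hx1R8, against 3 and 2 reads with Vehicle. NDUFA4L2, a target of hypoxia signalling in other cells, had 3 and 9 reads with Hx1R8, against 9 and 7 reads with Vehicle. Each of these lay far below its common partner, for example COX4I1 with 238 and 225 CPM with Hx1R8, against 230 and 245 CPM with Vehicle. In all, 10 members were too low to test and had at most 9 reads in any library, and 5 of those were at 0 throughout, namely COX6A2, COX7B2, COX8C, ATP5MGL and the read-through ATP5MF-PTCD1, which shares all its exon bases with other rows. The read-through NDUFC2-KCTD14 had 1 and 2 reads with Hx1R8, against 0 and 1 reads with Vehicle. The coding sequences of these forms were 46.0% to 91.3% identical to their partners, the highest being ATP5MGL with ATP5MG.

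Complex V is a rotary motor whose head, F1, makes ATP and whose membrane part, Fo, carries protons. The F1 subunits were even apart from the smallest one. ATP5F1A had 844 and 845 CPM with Hx1R8, against 824 and 840 CPM with Vehicle (log2 fold change 0.02). ATP5F1B had 791 and 795 CPM with Hx1R8, against 784 and 797 CPM with Vehicle (0.004). ATP5F1C, a subunit of the central stalk, was at 0.01. The c ring, through which protons pass, is encoded by a trio of genes for 1 mature protein. ATP5MC1, ATP5MC2 and ATP5MC3 were at -0.01, -0.08 and -0.02, and of these only ATP5MC2 had both Hx1R8 libraries below both Vehicle libraries, with 124 and 120 CPM with Hx1R8 and 127 and 132 CPM with Vehicle. The 4 subunits of the peripheral stalk lay between -0.008 and 0.04.

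The 5 tested small membrane subunits of complex V were all below 0, with a median of -0.12. Hx1R8 replicate 2 was the lowest library for 4 of the 5, and their median deviation from the mean of the libraries was 0.05 in Hx1R8 replicate 1 and -0.17 in Hx1R8 replicate 2. ATP5MD, which helps hold ATP synthase dimers together, had 30.7 and 24.2 CPM with Hx1R8, against 34.7 and 29.9 CPM with Vehicle (log2 fold change -0.25, SE 0.09, unadjusted p = 0.0072, adjusted p = 0.9999 by edgeR), and its groups overlapped. The ATP5MD value was -0.07 without Hx1R8 replicate 2, -0.42 without Hx1R8 replicate 1 and -0.14 without Vehicle replicate 1, and none of these passed the edgeR threshold. ATP5MF, a subunit of the same region, had 42.8 and 45.8 CPM with Hx1R8, against 47.4 and 49.0 CPM with Vehicle (-0.12, SE 0.06), with no overlap. ATP5ME, the e subunit, had 47.0 and 27.6 CPM with Hx1R8, against 42.2 and 40.1 CPM with Vehicle. Its Hx1R8 libraries lay on either side of the Vehicle pair, so the log2 fold change of -0.16 (SE 0.11) depends on replicate 2 and is 0.19 without it. ATP5MG was at -0.08 (SE 0.05).

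ATP5F1E, the epsilon subunit of F1, was the only member far from 0 and one of the least measured. It had 29 and 25 reads with Hx1R8, against 12 and 17 reads with Vehicle, or 1.68 and 1.19 CPM with Hx1R8 and 0.686 and 0.983 CPM with Vehicle. The groups did not overlap, at a log2 fold change of 0.76 (SE 0.34, unadjusted p = 0.030, adjusted p = 0.9999 by edgeR). Only 59.25% of its listed exon bases are not shared with another row, the others being the read-through SLMO2-ATP5E and TUBB1, so its count may hold only part of its transcripts. Among the members, 16 share exon bases with another row. The unshared part was 69.4% for ATP5MF, 75.7% for NDUFB2, 77.7% for NDUFC2 and 81.6% for ATP5MD. For UQCRQ it was 96.1%, and for COX6B1 and UQCR11 it was 100%. How sharing affected these counts was not tested.

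**Figure D3:**
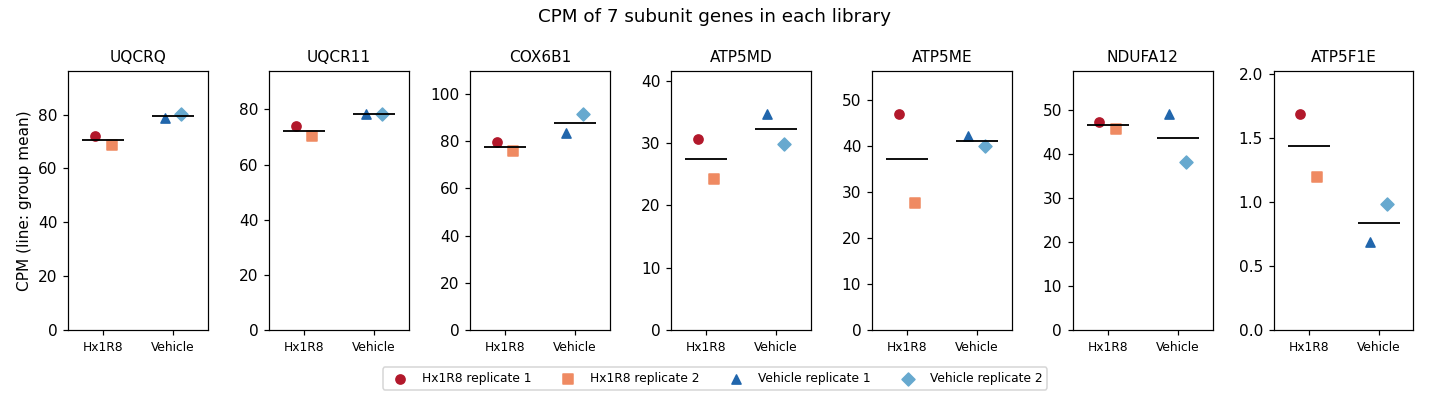
CPM in each library for 7 members: the 5 with an unadjusted p under 0.05, and ATP5ME and NDUFA12, which were called when 1 library was left out. Lines are group means. UQCRQ, COX6B1 and UQCR11 are lower in both Hx1R8 libraries, and ATP5ME is low in Hx1R8 replicate 2 alone.

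Leaving out 1 library at a time changed which members passed. Without Hx1R8 replicate 1, ATP5ME was lower with Hx1R8 (log2 fold change -0.57, edgeR adjusted p = 4.3e-05), where 0.0336% of tested genes were called lower. Without Vehicle replicate 1, COX6B1 was lower (-0.24, edgeR adjusted p = 0.0056; 0.257% of genes called lower) and NDUFA12, an accessory subunit of complex I, was higher (0.28, edgeR adjusted p = 0.0325; 0.277% called higher). Without Vehicle replicate 2, ATP5MD was lower (-0.35, edgeR adjusted p = 0.0150; 0.121% called lower). Each of these fits has a lone library in 1 group, which is assumed to vary like the others. None of these genes was called in more than 1 of the 4 fits. Of members called 0 times in a direction, the share of all genes was 0.0134% higher without Hx1R8 replicate 1, 0.0338% higher and 0.00677% lower without Hx1R8 replicate 2, and 0.0874% higher without Vehicle replicate 2. NDUFA12 had 47.3 and 45.7 CPM with Hx1R8, against 49.1 and 38.2 CPM with Vehicle, so that Vehicle replicate 2 alone was low.

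Compared by library, the members leaned down in Hx1R8 replicate 2. For each gene, the deviation of its log2 CPM from its own mean over the 4 libraries was taken. The median over the members was 0.02 and -0.06 in Hx1R8 replicates 1 and 2, and 0.04 and 0.002 in Vehicle replicates 1 and 2. Over all tested genes each median was within 0.01 of 0. Hx1R8 replicate 2 was the lowest library for 42 of 79 members, or 53.2%, against 21.8% of all tested genes, and the highest for 3, or 3.80%, against 20.3%. In complex IV it was the lowest for 10 of 12 tested members, in complex III for 6 of 10 and in complex I for 18 of 36. It was the lowest for none of the 6 named catalytic core subunits, where Hx1R8 replicate 1 was the lowest for 4. In complex V it was the lowest for 7 of 17 and in complex II for 1 of 4, against 6 and 2 for Vehicle replicate 2. Vehicle replicate 2 was the lowest for all 4 subunits of the peripheral stalk. Some of the functional gene lists described below leaned the same way. In Hx1R8 replicate 2 the median was -0.03 for assembly factors, -0.03 for mitochondrial ribosomal proteins and -0.015 for biogenesis regulators. For each of these lists it was the lowest library. The TCA cycle and pyruvate dehydrogenase genes were at -0.002 there and the partners and carriers at 0.005, and for both another library was lower. Summed over members, the level was 8713 and 8387 CPM with Hx1R8, against 8737 and 8578 CPM with Vehicle. The lean below 0 varied with the library left out. The median member log2 fold change was -0.07 without Hx1R8 replicate 1 and 0.007 without Hx1R8 replicate 2. It was -0.03 and -0.06 without Vehicle replicates 1 and 2. Without Hx1R8 replicate 2, the medians of complexes II and III stayed below 0, at -0.03 and -0.01. Those of complexes I, IV and V were then 0.009, 0.003 and 0.03.

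**Figure D4:**
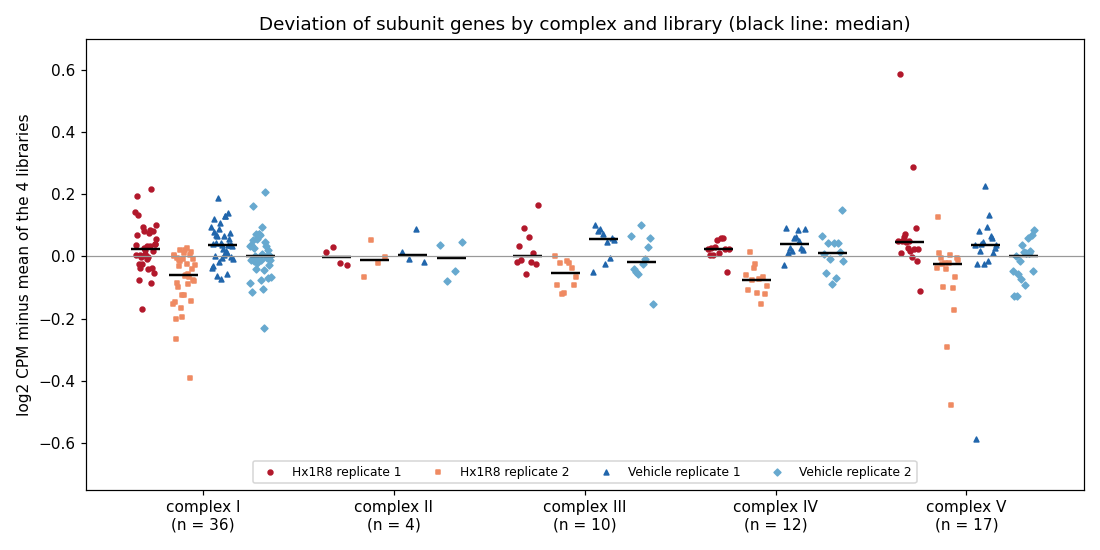
Deviation of each member's log2 CPM from its own mean over the 4 libraries, by complex and library. Hx1R8 replicate 2 has the lowest median in each complex, from -0.08 in complex IV to -0.01 in complex II. Its median over the members is -0.06, against 0.02 in Hx1R8 replicate 1. It is the lowest library for 1 of 4 members of complex II and 7 of 17 of complex V.

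Many members are short genes. Their median exon length was 1173 bases, against 3722.5 bases for all tested genes, and 39 of 89 were under 1000 bases. The deviation in Hx1R8 replicate 2 moved with length among the members, with a Spearman rho of 0.295 over 79 members, and rho was -0.236 in Hx1R8 replicate 1, -0.256 in Vehicle replicate 1 and 0.0600 in Vehicle replicate 2. These are descriptions over genes that share libraries, and over all tested genes the values were 0.0807, -0.0195, -0.0361 and -0.0411 in the same order. For the 14 members under 600 bases the median deviations were 0.08 and -0.07 with Hx1R8 and 0.04 and 0.003 with Vehicle. For the 263 tested genes of all kinds under 600 bases they were 0.02 and -0.05 with Hx1R8 and 0.04 and 0.04 with Vehicle. At 600 to 2000 bases the median in Hx1R8 replicate 2 was -0.06 for 42 members, against -0.01 for 2603 tested genes. Over 2000 bases it was -0.01 for 23 members, against 0.003 for 11616 tested genes. The 3 tested members under 450 bases were low in Hx1R8 replicate 2. ATP5ME at 303 bases, NDUFB1 at 316 bases and NDUFA1 at 416 bases lay there at -0.48, -0.39 and -0.20. The next tested members in length did not all follow. NDUFB2 at 465 bases and ATP5MF at 480 bases had a higher CPM there than in Hx1R8 replicate 1. COX6B1 at 488 bases had a lower one. With an offset for exon length, the median log2 fold change of the members was -0.026, against -0.034 without it.

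**Figure D5:**
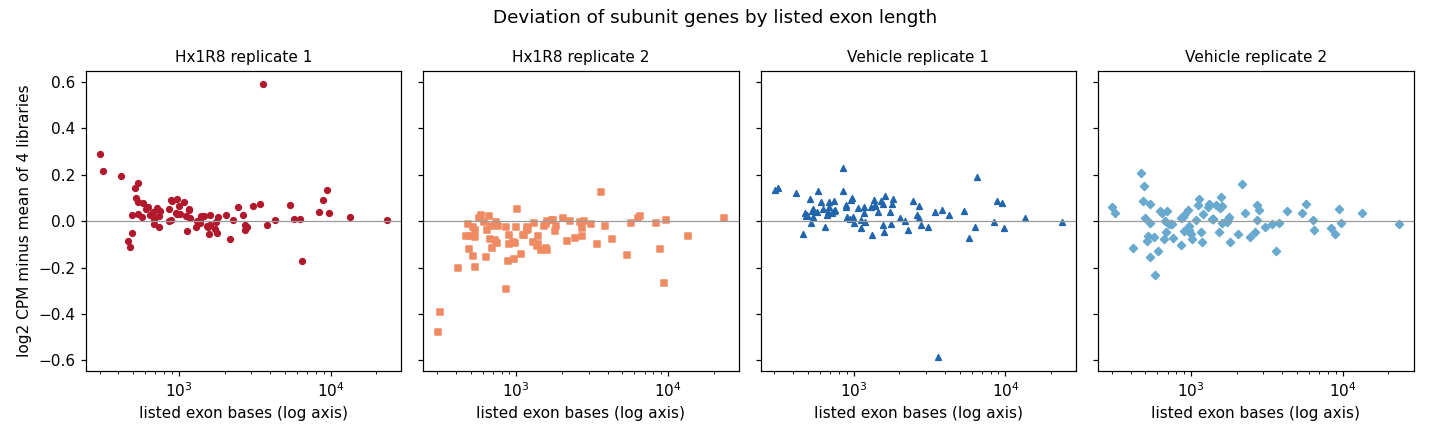
Deviation of each tested member's log2 CPM from its mean over the 4 libraries against listed exon length in bases (log axis), with 1 panel per library. At the short end, ATP5ME and NDUFB1 are low in Hx1R8 replicate 2 (-0.48 and -0.39) and high in Hx1R8 replicate 1 (0.29 and 0.22); the points near 0.6 and -0.6 are ATP5F1E.

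Promoters of the members were looked at for motifs of factors known to drive nuclear mitochondrial genes, NRF1, GABPA (also called NRF2) and YY1. RefSeq promoters of GRCh38.p14, from 250 bases before to 50 bases after the start, were available for 69 of 87 subunit rows and for 27305 genes in all. Searched on both strands, the palindromic NRF1 motif (the first run of capitals in the SDHD promoter) was in 4 of 69 member promoters, or 5.80%, against 1.36% of all promoters. ACTTCCGG for GABPA was in 10, or 14.5%, against 4.44%, and ATGGCGGC for YY1 was in 12, or 17.4%, against 3.21%. At least 1 of them was in 23, or 33.3%, against 8.37%, and no matches of different motifs overlapped in a member. Except in NDUFA7 and NDUFS8, the YY1 matches lay after the start. Whether these belong to coding sequence was not tested. Shown are the promoters of the members with the smallest unadjusted p, UQCRQ at chr5:132866392-132866691 (plus strand) and COX6B1 at chr19:35648073-35648372 (plus strand), and of SDHD at chr11:112086623-112086922 (plus strand), which holds matches to 2 of the factors. Capitals mark the matches on either strand: GABPA in UQCRQ, NRF1 and then GABPA in SDHD, and none in COX6B1.
UQCRQ: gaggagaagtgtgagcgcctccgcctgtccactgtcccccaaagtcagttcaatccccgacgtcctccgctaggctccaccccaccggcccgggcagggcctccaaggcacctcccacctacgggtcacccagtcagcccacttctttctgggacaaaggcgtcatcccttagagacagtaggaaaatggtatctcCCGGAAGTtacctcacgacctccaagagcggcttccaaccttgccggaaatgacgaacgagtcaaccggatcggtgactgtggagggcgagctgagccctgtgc
COX6B1: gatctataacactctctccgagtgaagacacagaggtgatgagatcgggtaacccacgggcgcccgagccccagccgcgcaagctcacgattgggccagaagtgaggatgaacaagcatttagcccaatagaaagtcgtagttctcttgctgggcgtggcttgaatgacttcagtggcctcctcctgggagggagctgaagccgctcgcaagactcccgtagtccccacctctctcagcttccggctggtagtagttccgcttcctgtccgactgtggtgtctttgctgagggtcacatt
SDHD: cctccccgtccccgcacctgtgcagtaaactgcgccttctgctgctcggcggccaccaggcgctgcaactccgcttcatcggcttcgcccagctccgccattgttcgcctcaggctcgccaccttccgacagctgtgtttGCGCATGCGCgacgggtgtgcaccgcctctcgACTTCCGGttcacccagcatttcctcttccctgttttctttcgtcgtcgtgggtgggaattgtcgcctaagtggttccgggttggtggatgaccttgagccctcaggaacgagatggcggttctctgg
A match is a run of letters and not a shown binding site, and no binding was measured. UQCRQ and SDHD, both with a GABPA match, had log2 fold changes of -0.17 and -0.04.

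Genes that work with these subunits were read from lists chosen for their function. Of 53 tested assembly factors, which build the complexes, 0 were called, with a median log2 fold change of -0.03 and 35 below 0. CMC2, a copper-related factor of complex IV, averaged 29.2 ± 0.890 CPM with Hx1R8 and 33.1 ± 1.07 CPM with Vehicle (-0.18, SE 0.07), and TTC19, a complex III factor, averaged 79.8 ± 3.86 CPM with Hx1R8 and 73.3 ± 3.13 CPM with Vehicle (0.12, SE 0.06). Neither passed the adjusted threshold, and 3 assembly factors had an unadjusted p under 0.05. Of 77 tested mitochondrial ribosomal proteins, which make the mitochondrial subunits, 0 were called by edgeR, 3 had an unadjusted p under 0.05, the median was -0.002, and MRPL14 had the smallest p, at 19.4 ± 0.609 CPM with Hx1R8 and 23.5 ± 2.80 CPM with Vehicle (-0.28, SE 0.09).

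The 23 tested genes of the TCA cycle and pyruvate dehydrogenase also had 0 calls by edgeR, 1 unadjusted p under 0.05, a median of -0.002 and 12 below 0. PDK1, a kinase that switches pyruvate dehydrogenase off, averaged 18.7 ± 1.11 CPM with Hx1R8 and 15.9 ± 3.81 CPM with Vehicle (0.23, SE 0.11). Of the 16 regulators of mitochondrial biogenesis 0 were called by edgeR and 1 had an unadjusted p under 0.05, with a median of 0.01. TFB2M, a transcription factor of mitochondrial DNA, had 31.6 and 31.1 CPM with Hx1R8, against 27.9 and 27.5 CPM with Vehicle (0.18, SE 0.07), with no overlap. PPARGC1A, the coactivator PGC-1α, had 2.15 and 2.20 CPM with Hx1R8, against 1.49 and 1.56 CPM with Vehicle (0.51, SE 0.25), also with no overlap and at a low level. The 24 partners and carriers, such as VDAC3, the porin of the outer membrane, had 0 calls by edgeR, 0 with an unadjusted p under 0.05, and a median of -0.003, with 12 on each side of 0. Without Vehicle replicate 1, PDK1 was called higher (0.50, edgeR adjusted p = 0.0065) and MRPL14 lower (-0.40, edgeR adjusted p = 0.0107), where 0.277% and 0.257% of genes were called in those directions.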

How the data were processed

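RNA was sequenced from NCI-H520 cells. The authors deposited raw counts per gene, 1 column per library, with a summed exon length per row; per the submitters' processing notes the alignment used STAR 2.7.9 on hg38. No source used here names the counter, gene models or strand option, so overlapping and near-identical genes cannot be separated. In the table, 2 broken lines with 0 reads were dropped, and 0 other per-sample columns went unused.

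The test was edgeR 4.0.16 under R 4.3.3 (TMM factors, filterByExpr, group as the only term, quasi-likelihood test, Benjamini-Hochberg over all 14482 genes, threshold 0.05), with 2 residual and 36.9 prior degrees of freedom. CPM use TMM-scaled totals, and TPM use the deposited exon length. The fit was tested on simulated data. DESeq2 1.42.0 and limma-voom 3.58.1 were alternatives. The members and lists were chosen with earlier results of these data known. Members were named by smallest p (3 a complex, all 4 of complex II), highest and lowest TPM, paralogue pairs and any call in an alternative, and list genes by smallest p; other members named beside them were chosen after their values were seen. At totals of 17259403 to 20920857 counts a library, 3 reads are 0.143 to 0.174 CPM, and this floor covers counting error only. Sequences came from GENCODE v29 and RefSeq tables. Of the tested members, 1 counts in the totals but is not reported by name here or drawn in the named plots.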

Additional observations from a re-analysis of the deposited data

How the results depend on the processing

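With all 4 libraries, the 10 alternatives (median-ratio, upper-quartile and total scaling, no filter, at least 1 CPM in 2 libraries, DESeq2, limma-voom, the replicate block, and offsets for exon length and GC content) called 0 members. The same replicate numbers correlated at 0.03 in their deviations over genes. Such a value cannot tell whether they shared a culture or batch, which the labels do not give. With the replicate block 0 members were called and the median log2 fold change was -0.03. A changed sign was seen in 29 of 504 values recomputed for 36 named genes, of which 3 used all libraries: ATP5F1C at -0.00041 with the GC content offset, and ATP5MC1 at 0.0089 and COX6A1 at 0.017 with the exon length offset. Leaving out 1 library at a time, 0 to 1 members were called higher and 0 to 1 lower, and 0 to 1 genes of the lists were called in each direction. The log2 fold changes then ranged from -0.0081 to 0.017 for ATP5F1B, -0.030 to 0.055 for ATP5F1C, -0.044 to 0.021 for ATP5MC1, -0.11 to 0.061 for ATP5MC3, -0.57 to 0.19 for ATP5ME, -0.087 to 0.011 for COX4I1, -0.041 to 0.024 for COX6A1, -0.094 to 0.060 for COX7B, -0.20 to 0.012 for COX7C and -0.085 to 0.0040 for COX8A. They ranged from -0.077 to 0.28 for NDUFA12, -0.33 to 0.069 for NDUFA3, -0.091 to 0.043 for NDUFB9, -0.020 to 0.085 for NDUFS5, -0.059 to 0.0053 for SDHA, -0.11 to 0.025 for SDHD, -0.096 to 0.032 for UQCRH and -0.021 to 0.22 for UQCRHL. The cause of these sign changes was not tested. Without a change of sign, the range was -0.42 to -0.075 for ATP5MD, -0.28 to -0.017 for NDUFB2, -0.25 to -0.026 for NDUFA5 and -0.24 to -0.083 for NDUFC2. The medians ranged from -0.07 to 0.007 over all members, -0.09 to 0.009 for complex I, -0.03 to -0.02 for complex II, -0.08 to -0.002 for complex III, -0.10 to 0.003 for complex IV and -0.05 to 0.03 for complex V. With 2 libraries a group, ATP5F1E and UQCRHL, under 100 reads a library, had the widest intervals. The reason for their low counts was not tested.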
